A study of Drosophila melanogaster with 14 samples.

Results

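The genes described here were the night-high transcripts of the wild-type ventral lateral neurons (LNvs) of *Drosophila melanogaster*, 25 genes of the 13792 that were quantified. The members were chosen by their wild-type levels: a gene was taken when its lowest level in the wild-type libraries of ZT12, ZT14 and ZT16 was at least 10 TPM (a length-scaled share of the transcripts of a library) and at least 2 times its highest level in those of ZT0, ZT2 and ZT4. ZT is the time in hours after lights-on. The rule was met by 29 genes, which is 0.619% of the 4688 genes at 10 TPM or more in all 3 night libraries. Of these, the clock genes *vri*, *Pdp1* and *tim* and the gene *2mit* were left out by design. The clock genes *per* and *cwo* and the receptor gene *5-HT1A*, also to be left out, did not meet the rule. The same rule turned round, with day above night, was met by 21 genes.

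RNA was sequenced from LNvs that carried a membrane GFP under the *Pdf* promoter and were sorted from dissected brains of female flies. All 14 libraries were labelled with the background strain w1118. By the study's methods the flies were raised on regular food and then aged on 1.5x sucrose-yeast food, at 25°C. The titles of the wild-type libraries carry the label HC25, and those of the mutant libraries do not. Wild type had 1 library at each of its 6 times, the first of which the label calls ZT24 and the study ZT0. *Atx2* KD flies expressed the RNAi line KK108843 against *Atx2*, an RNA-binding translational regulator, under *Pdf*-GAL4, so that the knockdown was directed to PDF neurons, and had 2 libraries at ZT0 and 2 at ZT12. The *tyf(e)* flies carried a loss-of-function allele of *tyf*, whose product promotes the translation of PER, in the whole animal, and had 2 libraries at ZT4 and 2 at ZT16. No library of either mutant was made at ZT14, and the labels do not say whether replicate libraries came from separate groups of flies.

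The LNvs are the PDF-releasing pacemaker neurons of the fly brain, and they set the timing of morning activity and of rhythms in constant darkness. In each of them the transcription factors CLOCK and CYCLE activate target genes from late day into the early night, and PER and TIM proteins, made from such targets, later turn this activation off. Targets outside the loop carry the time signal into membrane excitability, peptide reception and the daily remodelling of the neurites.

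The levels in wild type are a description, because they chose the members. Among the 25 genes, the mean night level ran from 12.3 to 1300 TPM, and the mean night level was between 2.35 and 38.4 times the mean day level, with a median of 5.95. The highest library was that of ZT14 for 20 members, that of ZT12 for 4 members (*CG7272*, *CG7275*, *Trpm* and *CG13097*) and that of ZT16 for *CG43373*. The lowest was that of ZT4 for 15 members, ZT0 for 6 and ZT2 for 4. The members with the widest gap, from the lowest night to the highest day library, were *CG12290* (22.9-fold) and *Pura* (21.6-fold). Just inside the limit of 2-fold lay *CG7275* (2.00), *CG9705* (2.01) and *CG7985* (2.07), and just outside it *Act5C* (1.98), *Targ3* (1.96) and *CG42663* (1.93). The lowest night levels just inside the limit on level were 10.4 TPM for *CG31183*, 10.5 for *Gp210* and 11.2 for *CG13097*, and just outside it 9.96 for *skl*, 9.74 for *Pvr* and 9.57 for *Vha36-3*. By chromosome arm, 11 members lay on 3L, 7 on 2R, 5 on 3R, 1 on X and 1 on 2L.

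**Figure D1:**
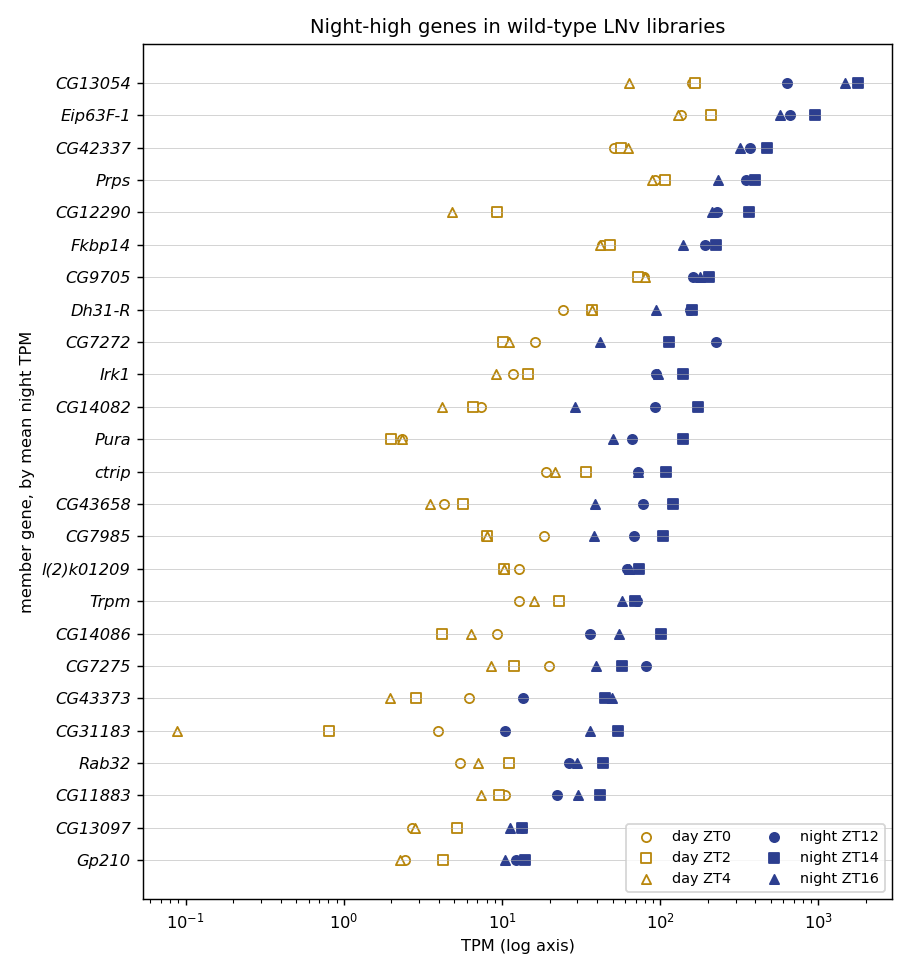
TPM (log axis) of each of the 25 members in the 6 wild-type libraries, ordered by mean night level, with open symbols for ZT0, ZT2 and ZT4 and filled symbols for ZT12, ZT14 and ZT16. Each symbol is 1 library; the night and day symbols of a gene do not overlap because that gap chose the genes, and ZT14 is the highest library for 20 of them.

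The mutant libraries took no part in the choice of members and were therefore tested. In *Atx2* KD the quasi-likelihood test of edgeR called 15 members higher at ZT12 than at ZT0, at an adjusted p under 0.05, where 2.21% of the 9111 genes tested were called higher. It called 1 member, *CG31183*, lower (3.22% of genes). The median log2 difference over all 25 members, all of which were in the test, was 1.38, beside -0.01 over all genes. Both ZT12 libraries lay above both ZT0 libraries in TPM for 20 members (27.2% of genes at 10 TPM or more in one of these libraries), and by at least 2-fold for 14 members (2.52%). All 25 members were counted here, 24 of which reached 10 TPM in one of these libraries. A 95% interval wholly under a 2-fold rise was found for 5 members, *Eip63F-1*, *CG31183*, *CG43373*, *CG11883* and *CG9705* (60.1% of genes tested). Of the 15 calls, 11 were made under every alternative fit, while those of *ctrip*, *CG13054*, *CG14086* and *l(2)k01209* were each lost without 1 or more libraries of *Atx2* KD. The call of *CG31183* was lost without any one of the 4 *Atx2* KD libraries (adjusted p = 0.0548 to 0.169, edgeR) and in the fit of all 14 libraries (0.526).

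In *tyf(e)*, 10 members were called higher at ZT16 than at ZT4 (edgeR, 0.823% of genes tested) and 0 lower (1.56%); at an unadjusted p under 0.05, 16 were higher and 1 was lower (*CG7272*), and DESeq2 also called 0 lower. The median log2 difference over the members was 0.74, beside -0.00 over all genes. For 16 members both ZT16 libraries lay above both ZT4 libraries (16.9% of genes at 10 TPM or more in one of these libraries), and for 7 by at least 2-fold (0.63%). Again all 25 members were counted, 21 of which reached 10 TPM in one of these libraries. The 95% interval stayed under a 2-fold rise for 9 members (61.9% of genes tested), namely *CG43658*, *l(2)k01209*, *Eip63F-1*, *CG7272*, *Dh31-R*, *Trpm*, *CG13097*, *Prps* and *CG7275*. The count of 10 depended on the ZT16 libraries, since 3 members were called without the second replicate and 6 without the first. Only the call of *Pura* was made under every alternative fit.

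**Figure D2:**
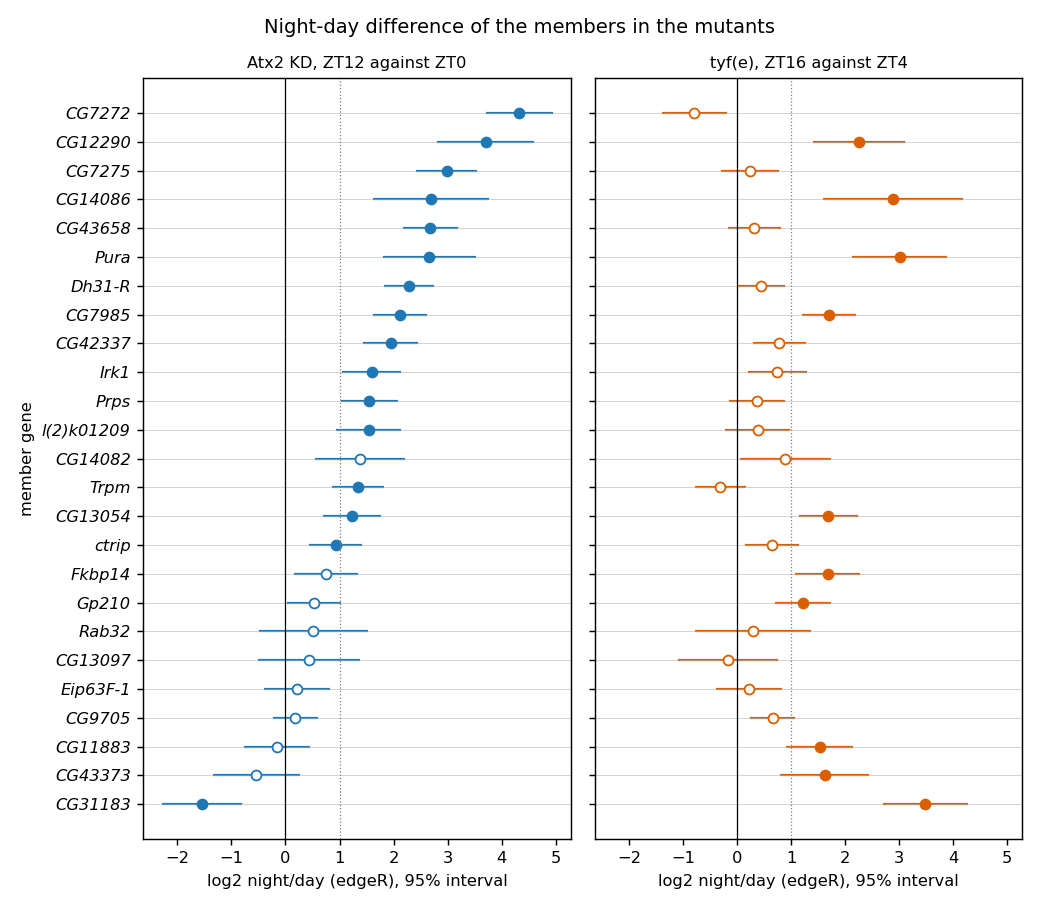
Fitted log2 night/day difference of the 25 members (edgeR, x axis) with its 95% interval, for *Atx2* KD at ZT12 against ZT0 (left) and *tyf(e)* at ZT16 against ZT4 (right), each from 2 libraries per time. Filled points passed an adjusted p of 0.05 (16 on the left, of which *CG31183* is below 0, and 10 on the right), the dotted line marks a 2-fold rise, and genes are ordered by the left panel.

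The members called higher at night in both mutants were *CG12290*, *Pura*, *CG14086*, *CG13054* and *CG7985*, 5 of the 15 in *Atx2* KD and 5 of the 10 in *tyf(e)*. Only 7 of all genes tested were called higher in both, the other two being *Act5C*, a cytoplasmic actin gene, and *CG45263*. A further 10 members were called only in *Atx2* KD, 5 (*Fkbp14*, *CG31183*, *Gp210*, *CG43373* and *CG11883*) only in *tyf(e)*, and 5 (*CG14082*, *Eip63F-1*, *Rab32*, *CG13097* and *CG9705*) in neither. DESeq2 called 17 members higher in *Atx2* KD, adding *Fkbp14* (adjusted p = 0.041) and *CG14082* (0.00131), and 12 in *tyf(e)*, adding *CG9705* (0.0381) and *CG42337* (0.0121). The difference between the mutants was tested directly in the same fit: it was positive, toward *tyf(e)*, for 3 members (2.58% of genes tested) and negative, toward *Atx2* KD, for 5 (2.65%). The sampled times differ, ZT0 and ZT12 against ZT4 and ZT16, so genotype and time cannot be told apart in it.

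*Pura*, on 3L, encodes a protein of the Puratrophin-1 type, known for its part in the daily remodelling of the LNv arbor. In wild type it stood at 2.34, 2.00 and 2.35 TPM at ZT0, ZT2 and ZT4, and at 65.9, 140.1 and 50.7 TPM at ZT12, ZT14 and ZT16. In *Atx2* KD the values were 2.62 and 2.33 TPM at ZT0 and 15.2 and 18.6 TPM at ZT12. In *tyf(e)* they were 3.25 and 1.13 TPM at ZT4 and 20.1 and 14.6 TPM at ZT16. Night and day did not overlap in any genotype, day levels overlapped between genotypes, and the mutant night levels lay below every wild-type night library. The log2 difference was 2.66 ± 0.39 (SE, adjusted p = 0.00178, edgeR) in *Atx2* KD and 3.01 ± 0.39 (adjusted p = 0.00256) in *tyf(e)*. Of the 27 genes for arbor remodelling and adhesion that were at 10 TPM or more in all wild-type night libraries, *Pura* alone met the rule. Of the 39 tested in the mutants, 4 rose and 2 fell in *Atx2* KD, and 1 rose and 1 fell in *tyf(e)*.

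Among the ion channels, *Irk1* (3R), which encodes an inwardly rectifying potassium channel, was called in *Atx2* KD. Its wild-type libraries held 11.8, 14.7 and 9.18 TPM by day and 94.0, 139.8 and 97.5 TPM by night. *Atx2* KD had 30.1 and 25.1 TPM at ZT0 and 78.7 and 101.7 TPM at ZT12, a log2 difference of 1.59 ± 0.24 (SE, adjusted p = 0.00234, edgeR). With 21.1 and 10.8 TPM at ZT4 and 23.7 and 23.8 TPM at ZT16, *tyf(e)* gave 0.74 ± 0.24 (adjusted p = 0.166). The *Atx2* KD day libraries were above, and the *tyf(e)* night libraries below, all those of wild type at that phase. Of the 21 potassium channel genes tested, 2 rose and 1 fell in *Atx2* KD, and 2 fell in *tyf(e)*, by edgeR. *Irk1* overlaps *cnc* on the other strand, and whether the counting used strand is not given in the sources used here.

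*Trpm* (2R), which encodes a cation channel of the TRP family, had a night level in *tyf(e)* that did not exceed its day level. Wild type went from 12.9, 22.8 and 15.96 TPM by day to 71.3, 69.5 and 57.6 TPM by night, and *Atx2* KD from 30.5 and 23.2 TPM to 64.0 and 83.1 TPM. In *tyf(e)* the 30.03 and 27.6 TPM of ZT4 lay above the 21.8 and 20.8 TPM of ZT16. The log2 difference was 1.34 ± 0.21 (SE, adjusted p = 0.00259, edgeR) in *Atx2* KD and -0.31 ± 0.21 (adjusted p = 0.564) in *tyf(e)*, and these differed by -1.65 ± 0.29 (adjusted p = 0.00645). That difference was lost without the second replicate of *Atx2* KD at ZT12 (adjusted p = 0.0561, edgeR). Of the 23 sodium, calcium and leak channel genes tested, *Trpm* was the only one called in *Atx2* KD, while 1 other was called in *tyf(e)*.

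*Dh31-R* (2R) encodes a G protein-coupled receptor for the neuropeptide DH31. Its wild-type levels were 24.3, 37.0 and 37.1 TPM by day and 155, 159.6 and 94.6 TPM by night. It rose in *Atx2* KD from 18.8 and 21.8 TPM to 95.4 and 116 TPM, a log2 difference of 2.29 ± 0.20 (SE, adjusted p = 5.85e-05, edgeR). In *tyf(e)* it was at 56.5 and 63.3 TPM at ZT4 and at 80.5 and 69.6 TPM at ZT16, a difference of 0.45 ± 0.19 (adjusted p = 0.319), with day libraries above every wild-type day library. The mutants differed by -1.84 ± 0.28 (adjusted p = 0.00217). *Dh31-R* was the only one of 9 peptide receptor genes at 10 TPM or more in all wild-type night libraries to meet the rule. Of the 27 peptide receptor genes tested, 3 rose and 4 fell in *Atx2* KD by edgeR.

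**Figure D3:**
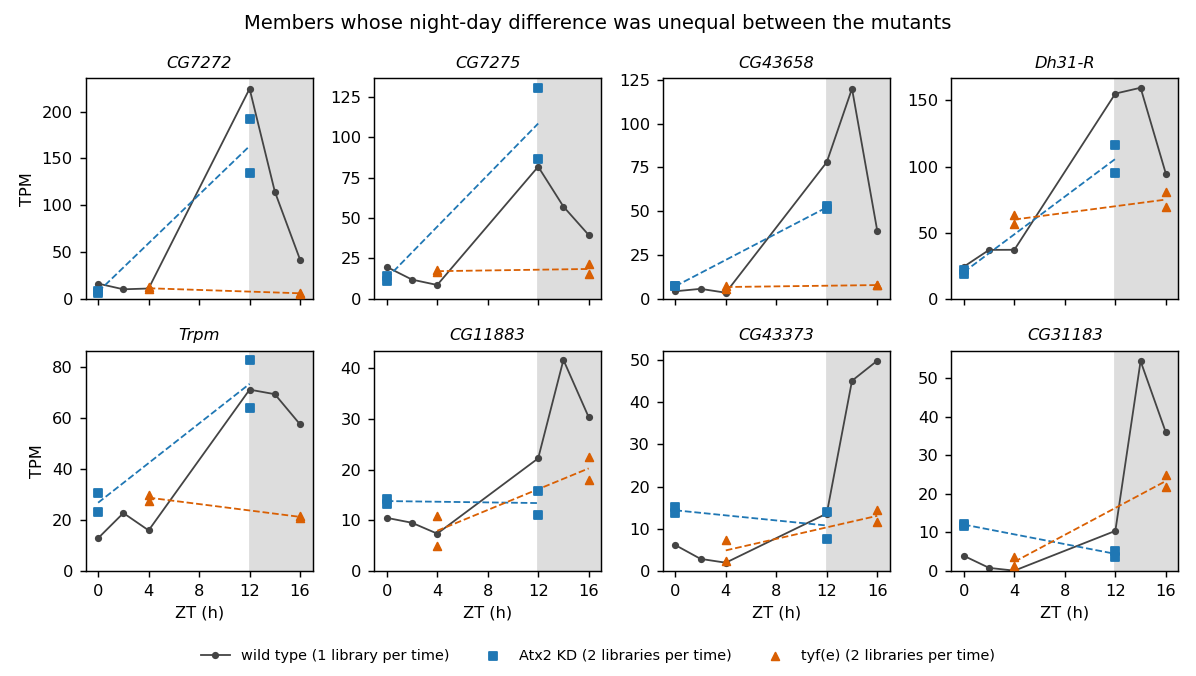
TPM by ZT for the 8 members whose night-day difference was unequal between the mutants (edgeR, adjusted p under 0.05). Grey circles are single wild-type libraries, blue squares and orange triangles the 2 libraries per time of *Atx2* KD and *tyf(e)*, dashed lines join their means, and shading marks the night; the first 5 genes were called higher at night only in *Atx2* KD, and the last 3 only in *tyf(e)*.

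The reverse pattern, a night rise in *tyf(e)* and none in *Atx2* KD, was found for *CG31183*, *CG43373* and *CG11883*. With TPM scaled by TMM factors, *CG31183* and *CG11883* did not meet the rule, nor did *Prps*, *ctrip*, *Rab32*, *CG13097* and *CG9705*. *CG31183* (3R) carries the synonyms GYC and DrGC-2 in RefSeq, those of a guanylyl cyclase, an enzyme that makes cyclic GMP. In wild type it stood at 3.93, 0.80 and 0.09 TPM at ZT0, ZT2 and ZT4, and at 10.4, 54.5 and 36.0 TPM at ZT12, ZT14 and ZT16. The *tyf(e)* libraries held 3.60 and 1.18 TPM at ZT4 and 21.8 and 24.9 TPM at ZT16, a log2 difference of 3.48 ± 0.35 (SE, adjusted p = 0.000521, edgeR). The *Atx2* KD libraries were higher by day, 11.8 and 12.3 TPM at ZT0 against 3.73 and 5.15 TPM at ZT12, a difference of -1.55 ± 0.33 (adjusted p = 0.0173). The day values of *Atx2* KD were thus above all wild-type day libraries and its night values below all wild-type night libraries, and the mutants differed by 5.03 ± 0.48 (adjusted p = 0.000118). The rise in *tyf(e)* was not called in the fit of all 14 libraries (adjusted p = 0.123, edgeR), which took the wild-type times of each phase as replicates.

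*CG43373* (3L), with the synonyms AC and dADCY5 of an adenylyl cyclase, the enzyme that makes cyclic AMP, was the one member highest at ZT16. Its wild-type values were 6.142, 2.87 and 1.96 TPM by day and 13.6, 45.1 and 49.8 TPM by night. In *tyf(e)* the level went from 7.42 and 2.34 TPM to 14.5 and 11.6 TPM, a log2 difference of 1.62 ± 0.37 (SE, adjusted p = 0.0452, edgeR). In *Atx2* KD the 13.7 and 15.1 TPM of ZT0 overlapped the 7.47 and 14.1 TPM of ZT12 (-0.54 ± 0.36, adjusted p = 0.556). The difference between the mutants was 2.16 ± 0.52 (adjusted p = 0.032). The call in *tyf(e)* was lost under 10 of 15 alternatives and the difference between the mutants under 7 of 14, and the gene overlaps *CG42514*, *CG33158* and *st*. None of the 22 listed genes of cAMP and G protein signalling at 10 TPM or more in all wild-type night libraries, a list that does not hold *CG43373*, met the rule.

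*CG11883* (2R) had 10.5, 9.52 and 7.37 TPM by day and 22.2, 41.7 and 30.4 TPM by night in wild type. It rose in *tyf(e)* from 10.9 and 5.002 TPM to 22.5 and 17.98 TPM, by 1.53 ± 0.27 on the log2 scale (SE, adjusted p = 0.0148, edgeR). *Atx2* KD, with 13.3 and 14.3 TPM at ZT0 and 11.0 and 15.8 TPM at ZT12, showed overlapping libraries (-0.15 ± 0.27, adjusted p = 0.889). The mutants differed by 1.68 ± 0.39 (adjusted p = 0.0266). The rise in *tyf(e)* was lost without either ZT16 replicate (adjusted p = 0.0879 and 0.0635, edgeR) and with only the 4 *tyf(e)* libraries (0.0893). The difference between the mutants was lost under 5 of 14 alternatives, which leave out any one of the 4 *Atx2* KD libraries or the first *tyf(e)* ZT16 replicate (adjusted p = 0.0587 to 0.125, edgeR). In wild type, these 3 genes had a smaller ratio at the times of *Atx2* KD than at those of *tyf(e)*: ZT12 over ZT0 was 2.65 for *CG31183*, 2.22 for *CG43373* and 2.12 for *CG11883*, and ZT16 over ZT4 was 405, 25.4 and 4.12. The 405 rests on 0.09 TPM, an estimated count of 6, at ZT4.

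*CG7275* and *CG7272* are neighbours on the same strand of 3L, *CG7275* from 15498959 to 15500561 and *CG7272* from 15500938 to 15503769 (BDGP6), with 376 bases and no other gene between them. Both were highest at ZT12 in wild type. *CG7272* had 16.3, 10.2 and 11.0 TPM by day and 224, 114 and 41.8 TPM by night, and *CG7275* had 19.7, 11.9 and 8.56 TPM by day and 81.7, 57.1 and 39.5 TPM by night. In *Atx2* KD, *CG7272* went from 8.57 and 6.42 TPM to 134 and 192 TPM, the largest fitted night rise of any member (log2 difference 4.32 ± 0.27, SE, adjusted p = 5.45e-06, edgeR). *CG7275* went from 11.3 and 14.1 TPM to 86.6 and 130.2 TPM (2.98 ± 0.25, adjusted p = 4.12e-05). Their *tyf(e)* libraries showed no such rise. They held 12.6 and 10.01 TPM at ZT4 and 6.55 and 5.26 TPM at ZT16 for *CG7272* (-0.79 ± 0.27, adjusted p = 0.183, edgeR), and 17.5, 16.7, 15.5 and 21.4 TPM for *CG7275* (0.25 ± 0.24, adjusted p = 0.708). The mutants differed by -5.11 ± 0.37 (adjusted p = 1.27e-05) and -2.73 ± 0.34 (adjusted p = 0.000653, edgeR). In wild type the ratio of ZT12 to ZT0 was 13.8 for *CG7272* and 4.14 for *CG7275*, and that of ZT16 to ZT4 was 3.79 and 4.61.

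*CG43658* (X) went the same way. It had 4.3, 5.70 and 3.48 TPM by day and 78.0, 119.9 and 38.9 TPM by night in wild type. *Atx2* KD rose from 7.33 and 7.09 TPM to 51.2 and 53.2 TPM (log2 difference 2.68 ± 0.23, SE, adjusted p = 4.38e-05, edgeR). The *tyf(e)* libraries, 5.89 and 7.58 TPM at ZT4 and 8.08 and 7.62 TPM at ZT16, were nearly level (0.32 ± 0.22, adjusted p = 0.564), and the mutants differed by -2.35 ± 0.31 (adjusted p = 0.000863). The wild-type ratios for this gene were 18.1 at ZT12 over ZT0 and 11.2 at ZT16 over ZT4. For *Dh31-R* they were 6.38 and 2.55, and for *Trpm* 5.53 and 3.61.

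*CG12290* (3R), the member with the widest wild-type gap, kept a night rise in both mutants. Wild type had 9.17, 9.32 and 4.85 TPM by day and 229, 366 and 213 TPM by night. *Atx2* KD went from 16.03 and 11.1 TPM to 156 and 231 TPM (log2 difference 3.70 ± 0.40, SE, adjusted p = 0.000278, edgeR), and *tyf(e)* from 20.3 and 7.08 TPM to 51.3 and 60.4 TPM (2.26 ± 0.38, adjusted p = 0.0103). The night libraries of *Atx2* KD lay on both sides of the wild-type ZT12 value, whereas those of *tyf(e)* were below every wild-type night library. The call in *tyf(e)* was lost without the second ZT16 replicate (adjusted p = 0.0841, edgeR).

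*CG7985* (3R) was also higher at night in both. It had 18.5, 8.06 and 7.99 TPM by day and 67.8, 103 and 38.2 TPM by night in wild type, 16.4 and 14.9 TPM at ZT0 and 58.4 and 89.1 TPM at ZT12 in *Atx2* KD, and 14.1 and 13.7 TPM at ZT4 and 37.4 and 45.0 TPM at ZT16 in *tyf(e)*. At matched times its mean night level was 108.7% of the wild-type library in *Atx2* KD and 108.0% in *tyf(e)*. The log2 differences were 2.11 ± 0.22 (SE, adjusted p = 0.000235, edgeR) and 1.70 ± 0.22 (adjusted p = 0.00254). In the fit of all 14 libraries the call in *tyf(e)* was lost (adjusted p = 0.0636, edgeR). Its annotation overlaps that of *CG44158*, and whether they share reads was not tested.

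*CG13054* (3L) was the most abundant member by night. Its levels were 159, 165 and 63.1 TPM by day and 634, 1789 and 1478 TPM by night in wild type, 188 and 148 TPM then 367 and 487 TPM in *Atx2* KD, and 109 and 122 TPM then 298 and 385 TPM in *tyf(e)*. All mutant night libraries were below all those of wild type, and all mutant night libraries were above the day libraries of the same mutant. The log2 differences were 1.23 ± 0.24 (SE, adjusted p = 0.00997, edgeR) and 1.69 ± 0.24 (adjusted p = 0.0049). *CG14086* (3L) was called in both too, by 2.69 ± 0.48 (adjusted p = 0.00632, edgeR) in *Atx2* KD, from 6.39 and 8.92 TPM to 53.7 and 50.6 TPM. In *tyf(e)* it was low throughout, at 0.86 and 1.03 TPM at ZT4 and 2.73 and 10.2 TPM at ZT16 (2.89 ± 0.59, adjusted p = 0.0258), with a lowest estimated count of 8. Without the second ZT16 replicate, neither *CG14086* nor *CG13054* was called in *tyf(e)* (adjusted p = 0.201 and 0.0635, edgeR), and neither was called there in the fit of all 14 libraries (0.0561 and 0.102). Wild type held 9.31, 4.15 and 6.34 TPM by day and 36.2, 101.5 and 55.0 TPM by night for this gene.

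**Figure D4:**
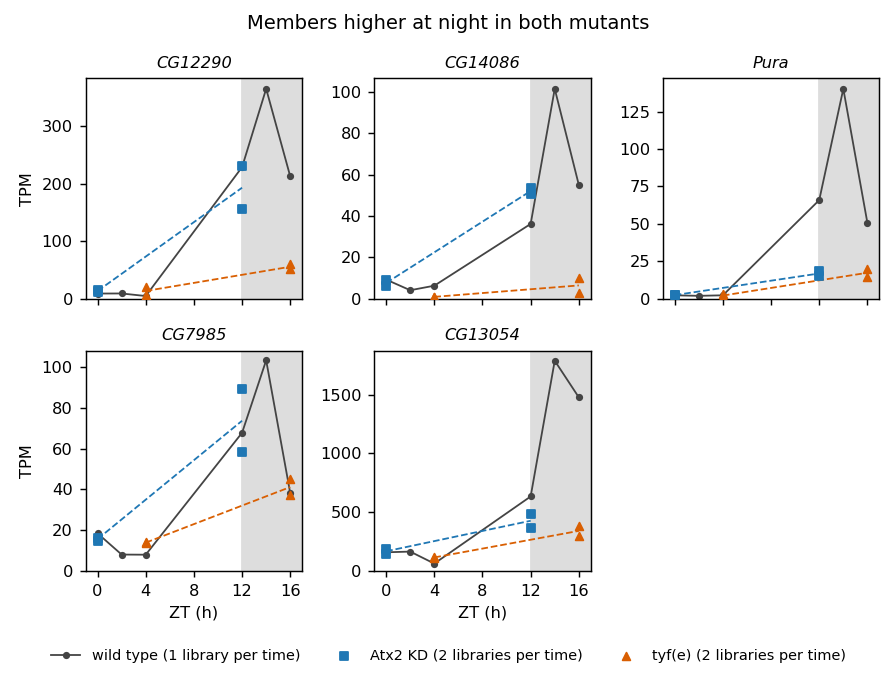
TPM by ZT for the 5 members called higher at night in both mutants (edgeR, adjusted p under 0.05), with grey circles for single wild-type libraries, blue squares and orange triangles for the 2 libraries per time of *Atx2* KD and *tyf(e)*, dashed lines joining their means and shading for the night. Every mutant night library lies above the day libraries of its mutant; the *tyf(e)* night libraries are below the wild-type ZT16 library for all of these genes but *CG7985*.

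*ctrip* (3R) encodes a ubiquitin ligase that acts on CLOCK, and *Prps* (3L) the phosphoribosyl pyrophosphate synthetase of nucleotide synthesis. For *ctrip*, wild type went from 19.1, 34.0 and 21.7 TPM to 72.2, 108.5 and 72.0 TPM and *Atx2* KD from 40.4 and 35.6 TPM to 62.9 and 96.5 TPM (log2 difference 0.93 ± 0.22, SE, adjusted p = 0.0272, edgeR), a call lost under 7 of 15 alternatives. Its *tyf(e)* libraries did not overlap, 21.3 and 23.4 TPM against 32.8 and 33.1 TPM, but the difference of 0.65 ± 0.22 was not called (adjusted p = 0.176). For *Prps*, wild type had 92.4, 107 and 88.4 TPM by day and 346, 396 and 232 TPM by night. It rose in *Atx2* KD from 73.6 and 89.2 TPM to 193 and 328 TPM (1.55 ± 0.23, adjusted p = 0.00229, edgeR), whereas the 101.7 and 59.0 TPM of *tyf(e)* at ZT4 and its 94.2 and 92.6 TPM at ZT16 overlapped (0.37 ± 0.23, adjusted p = 0.523).

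*Eip63F-1* (3L), an ecdysone-induced gene for a calcium-binding EF-hand protein, was the one member whose interval lay under a 2-fold rise in both mutants. It was abundant in wild type, at 136, 208 and 130.4 TPM by day and 666, 951 and 571 TPM by night. *Atx2* KD had 118 and 139.9 TPM at ZT0 and 137 and 185 TPM at ZT12, and *tyf(e)* had 89.9 and 38.7 TPM at ZT4 and 59.4 and 72.0 TPM at ZT16. Night and day overlapped in each mutant, and the night means were 24.2% and 11.5% of wild type at the same time. The log2 differences were 0.21 ± 0.27 (SE, adjusted p = 0.82, edgeR), with a 95% interval from -0.37 to 0.80, and 0.22 ± 0.27 (adjusted p = 0.782), with an interval from -0.37 to 0.81. *CG9705* (3L) had narrow intervals as well, from -0.22 to 0.59 in *Atx2* KD and from 0.26 to 1.06 in *tyf(e)*. Its levels were 78.7, 72.5 and 80.5 TPM by day and 162, 205 and 177 TPM by night in wild type, and between 86.2 and 125.5 TPM in all mutant libraries.

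Among the genes of membrane compartments, *Fkbp14* (2R), an FK506-binding prolyl isomerase of the endoplasmic reticulum, rose in *tyf(e)*. It went from 47.4 and 76.2 TPM to 192 and 177 TPM (log2 difference 1.68 ± 0.27, SE, adjusted p = 0.00866, edgeR), and from 71.0 and 88.9 TPM to 143 and 144 TPM in *Atx2* KD (0.75 ± 0.26, adjusted p = 0.149). Wild type held 43.0, 48.4 and 41.6 TPM by day and 192, 224 and 140.1 TPM by night. Neither mutant had overlapping night and day libraries, and the *tyf(e)* night mean was 132% of wild type at ZT16. *Gp210* (2R), which encodes a membrane glycoprotein of the nuclear pore, was scarce. It had 2.44, 4.22 and 2.26 TPM by day and 12.3, 14.02 and 10.5 TPM by night in wild type, and rose in *tyf(e)* from 3.33 and 2.88 TPM to 7.12 and 5.99 TPM (1.22 ± 0.23, adjusted p = 0.0184, edgeR). The calls of *Fkbp14* and *Gp210* in *tyf(e)* were both lost without either ZT16 replicate. *Rab32* (2R), a small GTPase of lysosome-related organelles, had 26.6, 43.4 and 29.9 TPM by night in wild type and 14.3 and 12.4 TPM in *Atx2* KD, and 2.72 and 4.07 TPM in *tyf(e)* at ZT16, where its mean was 11.4% of wild type. It was called in neither mutant (adjusted p = 0.698 and 0.841, edgeR).

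Of the members not described so far, 2 were called in *Atx2* KD only. *CG42337* (3L) rose there from 51.9 and 44.8 TPM to 156 and 251 TPM (log2 difference 1.94 ± 0.23, SE, adjusted p = 0.000446, edgeR). In *tyf(e)* its 60.8 and 60.4 TPM at ZT4 lay below its 100.7 and 89.9 TPM at ZT16, without a call (0.79 ± 0.22, adjusted p = 0.104), and wild type held 320 to 471 TPM by night. *l(2)k01209* (2R) rose in *Atx2* KD from 12.8 and 13.4 TPM to 31.8 and 49.7 TPM (1.54 ± 0.26, adjusted p = 0.0047, edgeR) and was at 16.6 and 9.29 TPM, then 14.8 and 15.2 TPM, in *tyf(e)* (adjusted p = 0.577). *CG14082* (3L) was just short of a call in *Atx2* KD (1.38 ± 0.37, adjusted p = 0.0551, edgeR), with 25.1 and 24.9 TPM at ZT0 and 62.0 and 78.3 TPM at ZT12. Its ZT0 libraries were above the highest wild-type day library, 7.34 TPM. *CG13097* (2L) stayed between 3.37 and 8.90 TPM in all mutant libraries, below the lowest wild-type night value of 11.2 TPM.

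Levels were also set beside wild type at the same time. These values are a description, since wild type chose the members and had 1 library per time. Choosing high night and low day wild-type values by itself favours mutant levels below wild type by night and above it by day. The gaps to all genes given below include this shift, and its size was not tested. Fewer cells of a type cannot be told apart from less RNA per cell in such samples. The median member in *Atx2* KD stood at 72.7% of wild type at ZT12, where the median of all genes at 10 TPM or more was 81.8%. It stood at 1.32 times wild type at ZT0, where that of all such genes was 0.78. In *tyf(e)* the median member stood at 36.9% of wild type at ZT16 (all genes 78.4%) and at 1.49 times wild type at ZT4 (all genes 0.91). Both *Atx2* KD night libraries were below all 3 wild-type night libraries for 10 members (43.6% of genes), a share near that of all genes, and both *tyf(e)* night libraries were below them for 20 members (53.2%). Both day libraries were above all 3 wild-type day libraries for 12 members in *Atx2* KD (9.94%) and 4 in *tyf(e)* (7.47%). These shares are of genes at 10 TPM or more in one of the libraries compared. By day that set held 20 members for *Atx2* KD and 18 for *tyf(e)*, while all 25 were counted. The neuropeptide gene *Pdf* alone took 19.3% to 27.9% of TPM in wild type, 26.3% to 31.7% in *Atx2* KD and 26.3% to 34.8% in *tyf(e)*, and its part in these level differences was not tested.

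**Figure D5:**
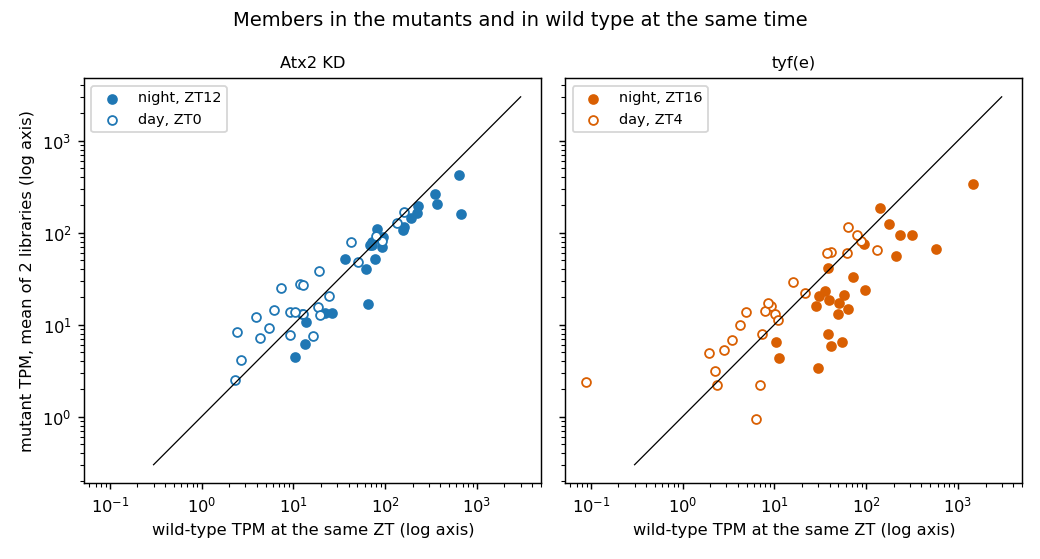
Mean TPM of the 2 mutant libraries (y axis) against the wild-type library of the same ZT (x axis), both on log axes, for the 25 members in *Atx2* KD (left) and *tyf(e)* (right). Filled points are night and open points day, and the line marks equal levels. Below it lie 19 night points on the left and 23 on the right (70.4% and 74.5% of all genes at 10 TPM or more in these libraries). Above it lie 17 and 19 day points (24.1% and 41.0%). All 25 members are counted, at any level. The choice of members by wild-type levels favours these sides, so the counts are a description.

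The clock genes left out of the group followed neither mutant pattern as one. *vri*, a repressor of the second clock loop, was called higher at night in *Atx2* KD (log2 difference 1.63 ± 0.30, SE, adjusted p = 0.00668, edgeR) and not in *tyf(e)* (0.98 ± 0.29, adjusted p = 0.13). Its mean day level was 75.2 TPM in *Atx2* KD and 96.5 TPM in *tyf(e)*, 19.6 and 34.4 times wild type at the same time. Its mean night level was 3.41 and 1.74 times the day level, against 99.2 and 123 in wild type at those times. *tim* and *Pdp1* were called in *tyf(e)*, by 1.59 ± 0.19 (adjusted p = 0.00174, edgeR) and 1.81 ± 0.22 (adjusted p = 0.00179), and not in *Atx2* KD (adjusted p = 0.283 and 0.985). The mean night level in *tyf(e)* was 2.76 times the day level for *tim* and 3.05 times for *Pdp1*. Wild-type ZT16 over ZT4 was 8.74 and 10.8. For *Atx2* KD the ratios were 1.48 and 1.08, against 2.73 and 3.85 at ZT12 over ZT0 in wild type.

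The libraries held 5216112 to 23507263 estimated counts. Depth went with time in both mutants. *Atx2* KD had 10674958 and 11586874 counts at ZT0 and 5216112 and 5771153 at ZT12. *tyf(e)* had 10607063 and 12897649 at ZT4 and 15750143 and 14155069 at ZT16. The part of depth in the calls was not tested. *Atx2* stood at 6.10 to 14.3 TPM in *Atx2* KD and 45.5 to 83.7 TPM in wild type, and *tyf* at 6.65 to 15.1 TPM in *tyf(e)* and 57.2 to 163.7 TPM in wild type. In *Atx2* KD, *tyf* held 25.3 to 131 TPM and was called higher at ZT12 than at ZT0 (edgeR). In *tyf(e)*, *Atx2* held 42.1 to 61.4 TPM. Besides *Pdf*, 5 genes had been listed as LNv markers. Of these, *Pdfr* held 29.1 to 483 TPM in wild type, *tim* 53.6 to 931 TPM and *per* 7.78 to 35.5 TPM. The other listed genes, *tsh* and *tio*, were nearly absent in wild type, at most at 1.45 and 2.27 TPM, and so did not mark LNvs here. In *Atx2* KD they held 9.14 to 16.2 and 4.77 to 9.31 TPM, and the reason was not tested. The summed 10 markers of other neurons held 1268 to 4454 TPM in wild type and 216 to 655 TPM in the mutants. Most of the wild-type sum came from *Dh31* (632 to 2875 TPM) and *NPF* (528 to 1552 TPM). *Dh31*, *NPF*, *ChAT* and *VAChT* were lower in every mutant library than in any wild-type library. The mutant and wild-type ranges of *Gad1*, *VGAT*, *VGlut*, *ple*, *AstC* and *prt* overlapped. *Gad1* was highest in a *tyf(e)* library of ZT4, at 192 TPM. Whether these sums reflect the share of other neurons was not tested. The 8 photoreceptor markers summed to 148 to 254 TPM in *tyf(e)* at ZT16 and 26.2 to 50.3 TPM at ZT4, and the 5 fat body markers to 20.7 to 102.7 TPM in *Atx2* KD at ZT12 and 4.09 to 6.44 TPM at ZT0. The 7 glial markers summed to 112.7 to 294 TPM in *tyf(e)* and to at most 43.4 TPM in the other genotypes. *Gs2* was the largest of them in *tyf(e)*, at 72.5 to 213 TPM, against at most 25.5 TPM in the other genotypes. The glial gene *repo* went the same way, at 1.06 to 3.37 TPM in *tyf(e)* and at most 0.70 TPM in the other genotypes. The *tyf(e)* ranges of *alrm*, *Eaat1*, *moody*, *wrapper* and *nrv2* overlapped those of the other genotypes. The part of these markers in the night-day differences was not tested.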

How the data were processed

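The authors quantified single-end reads of 50 bases, from RNA amplified with T7 polymerase, with kallisto against the FlyBase release 6.14 transcripts (version of kallisto not given in the sources used here), and deposited, for each of 30438 transcripts, a TPM value and kallisto's estimated count, which is an expected count without any normalization. Both were summed per gene by the Ensembl release 115 annotation, where 30191 transcripts matched 13792 genes and 247, with 0.234% of counts, did not. The rule and all levels used summed TPM. Differences were tested on rounded counts of the 8 mutant libraries, as 4 groups of 2, by edgeR 4.0.16 and its quasi-likelihood F-test (limma 3.58.1, R 4.3.3), TMM scaling, the filter of filterByExpr and Benjamini-Hochberg adjustment over the 9111 genes kept. The p-values measure the spread between labelled replicate libraries, which may be technical. The alternatives were DESeq2 1.42.0, other scaling and count filters, other sets of libraries, the replicate number as a block, leaving out each library and other limits in the rule. The fit of all 14 libraries took wild-type ZT0, ZT2 and ZT4 as replicates of day, and ZT12, ZT14 and ZT16 as replicates of night. Change between these times therefore entered its estimate of spread, and a call lost in it is not a loss against true replicates. The replicate numbers did not pair the libraries (correlation of deviations 0.02 in both mutants). The script was tested on simulated data. Tables and plots used pandas 2.3.3 and matplotlib 3.10.9.

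The members and gene lists were chosen with earlier results of these data known. Members were named when they were among the 12 widest gaps, the 8 most abundant, the calls in a mutant, the called differences between mutants, a gene list, the neighbours of a limit, or an interval under 2-fold in both mutants, with at most 10 calls a mutant; *ctrip* and *Rab32* fell outside this rule and were named after their values were seen. Some genes are not reported here, and no sequence was used here.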

Additional observations from a re-analysis of the deposited data

Results flagged for a closer look

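The night-day log2 difference was unequal between *tyf(e)* and *Atx2* KD for 8 members, by the test of the difference in edgeR. As *tyf(e)* minus *Atx2* KD it was -5.11 for *CG7272*, -2.73 for *CG7275*, -2.35 for *CG43658*, -1.84 for *Dh31-R* and -1.65 for *Trpm*, and 1.68 for *CG11883*, 2.16 for *CG43373* and 5.03 for *CG31183*. The first 4 and *CG31183* were called under each of the 14 alternative fits. *Trpm* was lost under 1 of them, *CG11883* under 5 and *CG43373* under 7. The 2 mutants were sampled at different times, so genotype and time cannot be told apart in any of these differences.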

How the results depend on the processing

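Of 860 values of single members under alternatives, 771 kept their direction and side of the threshold, 64 lost a call, 21 gained one and 4 changed sign, none of them called in the main fit. With all 14 libraries in the fit, where the wild-type times of each phase stood as replicates, 4 members were called higher in *tyf(e)* and 0 lower in *Atx2* KD. With only its own 4 libraries *tyf(e)* had 5. The cause of these changes was not tested. With members chosen at 3-fold, which keeps fewer genes, 8 were higher and 0 lower in *Atx2* KD, 4 were higher in *tyf(e)* and 1 differed between mutants. The rule gave 64 members at 1.5-fold and 9 at 3-fold. With TPM scaled by TMM factors it gave 18, without *Rab32*, *CG13097*, *CG11883*, *Prps*, *CG9705*, *CG31183* and *ctrip*. DESeq2 called 17, 12 and 10 members in *Atx2* KD, *tyf(e)* and the difference between them. Without single libraries the members higher in *Atx2* KD numbered 12 to 17, those lower 0 to 1, those higher in *tyf(e)* 3 to 11 and those differing between mutants 5 to 13. Leaving out single wild-type libraries, which loosens the rule, gave 30 to 54 members, 54 without ZT12 and 41 without ZT0. Leaving out single mutant libraries gave log2 differences of -0.15 to 0.78 for *Eip63F-1* and -0.059 to 0.85 for *Rab32* in *tyf(e)*, and of -0.28 to 0.88 for *CG13097* and -0.0022 to 0.32 for *CG9705* in *Atx2* KD. With the replicate block, 16 members were higher in *Atx2* KD, 9 in *tyf(e)* (*CG43373* lost) and 8 differed; the numbers share no pairing in the labels. Depth limits the lowest members most: *CG14086* had 8 estimated counts in 1 *tyf(e)* library.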
